A study of Mus musculus with 6 samples.

Results

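Integrins are the cell surface receptors that tie a cell to its matrix, and their transcripts were read in stromal cells sorted from the inflamed mouse colon. Members were all genes of the deposited tables whose names begin with Itga or Itgb, which gave 31 of 24346 genes: 18 alpha subunits, 9 beta subunits and 4 genes named after integrins that encode no subunit. Genes were taken as expressed where 3 or more of the 6 libraries had an FPKM of 1 or higher, which held for 16 of the 31, among them 9 alpha subunits and 4 beta subunits. FPKM counts sequenced fragments relative to transcript length and library size, so levels can be set side by side between genes.

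Each integrin is a pair of an alpha and a beta chain, and the alpha chain largely sets which ligand is bound. In fibroblasts, pairs with the beta1 chain bind fibrillar collagen, fibronectin and laminin, while pairs with the alphav chain bind proteins with an RGD tripeptide, among them vitronectin and the latent form of TGF-beta. Talins and kindlins bind the tails of beta chains inside the cell and link them to actin.

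The study compared 2 groups of 3 mice, all 12 weeks old and all given 1% dextran sulfate sodium (DSS), a compound that injures the colonic epithelium. Mice of both groups carried floxed Il10ra alleles (Il10ra flox/flox), and those of the Pdgfra-cre group (libraries 13, 23 and 25) also carried a cre recombinase driven by Pdgfra, a gene of fibroblasts. The floxed group (libraries 8, 9 and 43) had no cre, so an action of cre itself and loss of Il10ra cannot be told apart. Live cells with Podoplanin and without CD45, CD31 or EpCAM were sorted from the whole colon, and each library came from a different mouse.

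As a check of the labels, fibroblast markers were high in every library, with a summed FPKM of 15802 to 19353 over 7 genes. Of these, Pdgfra was lower in each Pdgfra-cre library than in any floxed one, with means of 188 in floxed and 150 in Pdgfra-cre. Dcn was higher in each Pdgfra-cre library, and the groups overlapped for the rest. Of all expressed genes, 8.29% were lower and 8.07% higher in this way. Il10ra was listed at 0 in 5 libraries and at 0.418 FPKM in floxed library 43, so its deletion could not be seen in these values. Library 23 stood somewhat apart, with a mean correlation with the other 5 libraries of 0.950 against 0.960 to 0.970 for the rest. Its 7 neutrophil markers summed to 180 FPKM, against 1.36 to 18.05 in the other libraries. Smooth muscle markers summed to 777 to 804 FPKM over 8 genes in floxed libraries and to 184 to 462 in Pdgfra-cre libraries. These are bulk values, in which fewer cells of a type and less RNA per cell cannot be told apart.

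Itgb1, whose product is the common partner of most matrix-binding alpha chains, was the most abundant member and ranked 251 among all 24346 genes by mean FPKM. Of 24 known integrin pairs, 12 had both subunits past the filter, 8 of them with Itgb1. In all 8 the alpha subunit had a lower FPKM than Itgb1 in 6 of 6 libraries. The 12 alpha subunits that can join Itgb1 (Itga1 to Itga11 and Itgav) together came to 0.361 ± 0.013 times the FPKM of Itgb1 in floxed and 0.409 ± 0.051 times in Pdgfra-cre (SD, n = 3 each; exact two-sided permutation p = 0.4). With 3 libraries against 3, the smallest p this test can give is 0.1. Transcript levels do not show which pairs form at the cell surface.

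**Figure D1:**
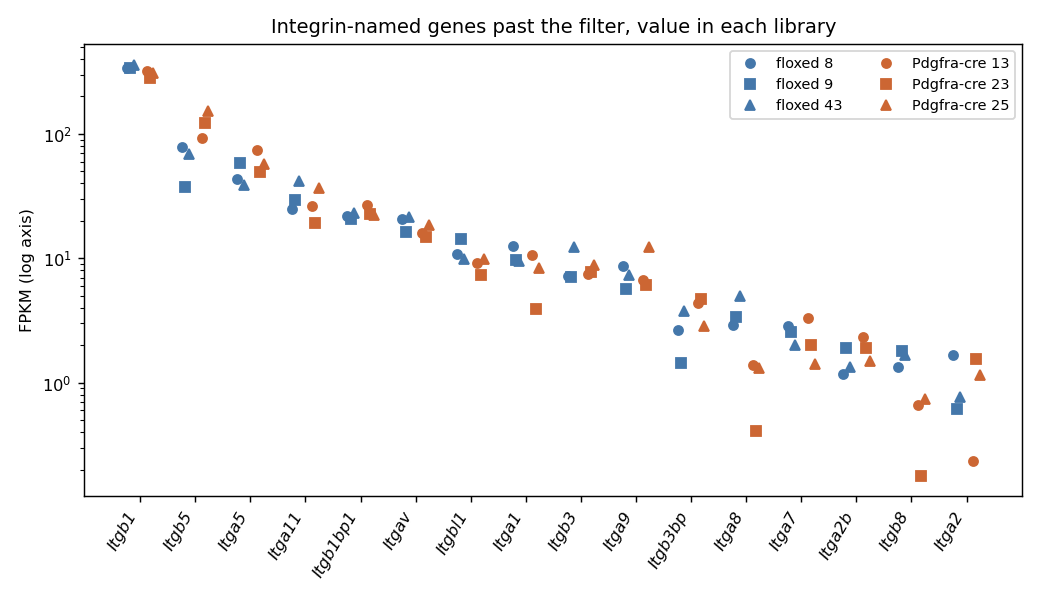
FPKM on a log axis for the 16 members past the filter, ordered by mean, with 1 point per library (floxed blue, Pdgfra-cre orange). Itgb1 lies above all others in every library, and Itga8 and Itgb8 are the low members whose Pdgfra-cre points all lie under the floxed ones.

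The order of levels began with Itgb1, followed by Itgb5, Itga5, Itga11, Itgb1bp1, Itgav, Itgbl1, Itga1, Itgb3 and Itga9. Neighbours in this order had overlapping ranges over the 6 libraries except Itgb1 and Itgb5, Itgav and Itgbl1, and Itga9 and Itgb3bp, the last of which came next in line. Below it lay Itga8, Itga7, Itga2b, Itgb8 and Itga2, whose ranges overlapped with their neighbours'. Of all alpha subunit FPKM, Itga5 supplied 36.8% ± 7.84 in floxed and 47.4% ± 5.77 in Pdgfra-cre (SD, n = 3 each; exact permutation p = 0.2). Itga11 supplied 25.2% ± 6.21 and 21.3% ± 4.51 (exact permutation p = 0.5). The summed alpha FPKM was 127 ± 5.08 in floxed and 128 ± 23.8 in Pdgfra-cre, where library 23 was lowest of all 6 at 100.2 and library 13 highest at 144. These shares and sums, like the ratios of beta chains further on, were chosen after the values were seen.

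**Figure D2:**
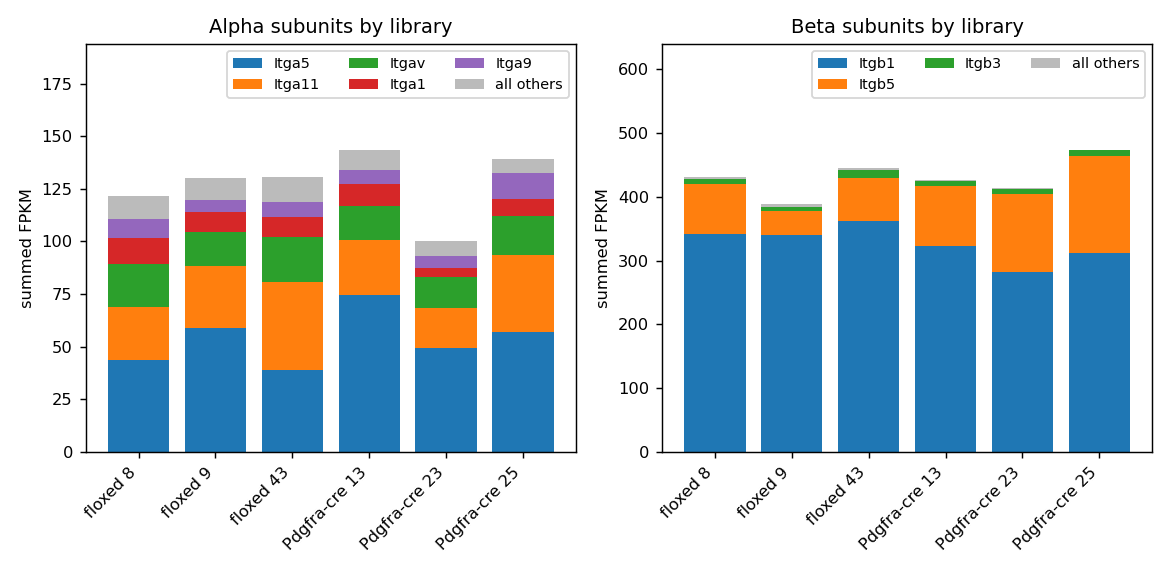
Summed FPKM of alpha subunits (left) and beta subunits (right) in each of the 6 libraries, divided by gene. Itga5, Itga11 and Itgav make up most of each alpha bar, and the Itgb5 part of the beta bar is larger in each Pdgfra-cre library than in any floxed library.

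No member passed the test between genotypes. With limma on log2(FPKM + 1), 0 of 16 tested members had an adjusted p under 0.05, as had 0% of the 11429 genes tested. At an unadjusted p under 0.05 there were 3 members, 1 higher in Pdgfra-cre (Itgb5) and 2 lower (Itga8 and Itgb8), where 11% of all genes reached it, 5.47% higher and 5.49% lower. The groups did not overlap in 5 members, 1 higher (Itgb5) and 4 lower (Itgb1, Itga8, Itgb8 and Itgbl1), where 8.07% of all tested genes did not overlap and were higher and 8.29% were lower. Of the 16, 10 had a log2 fold change below 0, as had 49.7% of all genes tested. The median log2 fold change of the 16 was -0.11, and -0.087 without library 23, against 0.0012 over all genes tested. Itgb8, counted among the lower members here, met the filter through the floxed libraries alone, so its direction was set by the filter, and without it the median of the other 15 was -0.10. For 13 of the 16 the 95% interval of the log2 fold change included 0.

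**Figure D3:**
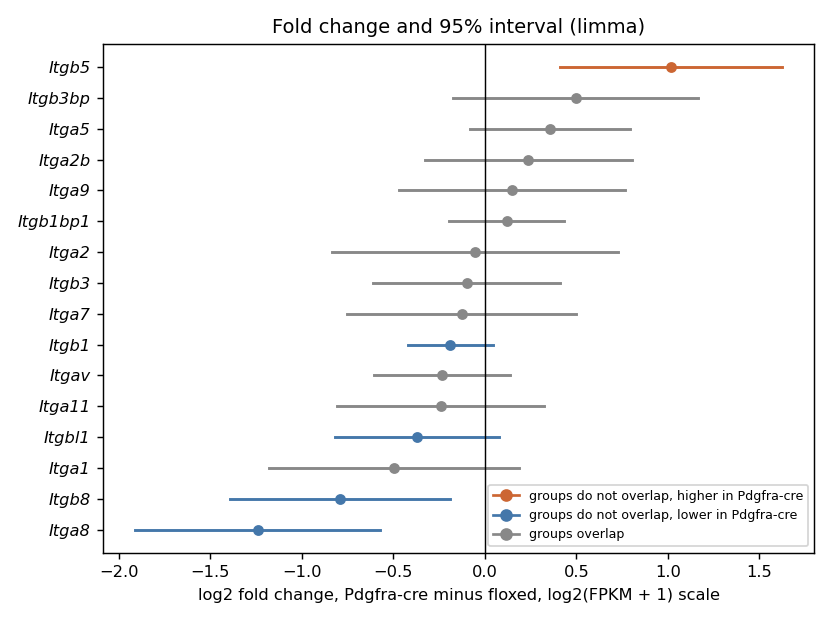
Log2 fold change, Pdgfra-cre minus floxed, on the log2(FPKM + 1) scale for the 16 tested members, with the 95% interval from limma as a line. Itgb5 (highest), Itgb8 and Itga8 (lowest) are the members whose interval leaves out 0.

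Itgb5, which encodes the beta5 chain that pairs with alphav and binds vitronectin, had the largest positive difference. Its FPKM was 78.8, 37.7 and 68.9 in floxed libraries 8, 9 and 43, and 93.1, 123 and 152 in Pdgfra-cre libraries 13, 23 and 25. All 3 Pdgfra-cre libraries lay above every floxed library. The group means were 61.8 ± 21.4 and 123 ± 29.7 (SD, n = 3 each), 1.99-fold apart, and the log2 fold change was 1.02 ± 0.27 (SE; 95% interval 0.41 to 1.62; limma adjusted p = 0.213). It was 1.00 without library 23 and 0.70 without floxed library 9, the lowest of the controls.

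Ratios of Itgb5 to Itgb1 and to Itgav use the same Itgb5 values, so they add no separate support. Itgb5 FPKM was 0.177 ± 0.061 times that of Itgb1 in floxed and 0.405 ± 0.105 times in Pdgfra-cre (n = 3 each, ± SD; p = 0.1 by the exact permutation test). Its ratio to Itgav, its only known alpha partner, was 3.81, 2.31 and 3.22 in floxed libraries 8, 9 and 43 and 5.86, 8.36 and 8.29 in Pdgfra-cre libraries 13, 23 and 25. The groups of both ratios did not overlap. For the ratio to Itgb1 this was fixed, and with it the p, since Itgb5 was higher and Itgb1 lower without overlap. Mesothelial markers also lay higher, with a summed FPKM of 3.09 to 12.9 over 7 genes in floxed and 14.3 to 79.0 in Pdgfra-cre, and none was at 0 in all libraries. Of the 5 tested, 5 had a log2 fold change above 0, as had 5752 of all 11429 genes tested. Groups did not overlap in 2, both higher, where 8.07% of all genes were higher without overlap. Msln, 1 of these 2, reached 1 FPKM in Pdgfra-cre libraries only, so it could only have been higher. Without it, 1 of 4 did not overlap. The sum was highest in library 23, whereas Itgb5 was highest in library 25. Epithelial markers summed to 0.306 to 12.7 FPKM over 8 genes in floxed and 6.25 to 26.6 in Pdgfra-cre. Krt8 (means of 2.56 in floxed and 6.56 in Pdgfra-cre) and Krt18 (0.890 and 5.52) made up most of that difference. Epcam and Cldn7 also had higher means in Pdgfra-cre, whereas Krt20, Vil1, Cdh1 and Muc2 had lower ones. The part of the mesothelial or epithelial list in the Itgb5 values was not tested. Itgb5 transcripts thus exceeded those of Itgav in 6 of 6 libraries, while Itgb3 stayed below Itgav in 6 of 6.

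Itgb5 lies on chromosome 16, 33829665 to 33949338 (mm10), and Itgb1 on chromosome 8, 128685654 to 128733200. Itga8 lies on chromosome 2, 12106632 to 12301922. The 250 bases before the RefSeq start (GRCm38.p6, the assembly of mm10) of these 3 genes are shown because they are the most abundant subunit and the highest and lowest in fold change. Capitals mark matches, on either strand, to the letters GGGCGG (SP1) or GGAATG (TEAD).
Itgb5 (chr16:33829415-33829664, + strand): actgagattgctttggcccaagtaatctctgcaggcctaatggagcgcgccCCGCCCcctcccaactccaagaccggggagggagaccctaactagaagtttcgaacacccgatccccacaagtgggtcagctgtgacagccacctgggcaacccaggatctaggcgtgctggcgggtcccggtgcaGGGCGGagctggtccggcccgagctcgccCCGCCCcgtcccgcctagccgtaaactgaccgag
Itgb1 (chr8:128685404-128685653, + strand): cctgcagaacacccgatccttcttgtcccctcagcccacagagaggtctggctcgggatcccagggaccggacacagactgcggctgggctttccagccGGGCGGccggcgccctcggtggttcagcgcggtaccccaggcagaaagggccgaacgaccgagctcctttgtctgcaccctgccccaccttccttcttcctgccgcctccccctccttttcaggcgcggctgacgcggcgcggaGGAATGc
Itga8 (chr2:12301945-12302194, - strand): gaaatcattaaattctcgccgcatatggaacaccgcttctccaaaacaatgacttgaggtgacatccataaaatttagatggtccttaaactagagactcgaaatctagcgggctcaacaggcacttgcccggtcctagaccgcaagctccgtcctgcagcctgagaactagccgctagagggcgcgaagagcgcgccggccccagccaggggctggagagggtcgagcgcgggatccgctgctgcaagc

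The Itgb5 window held 3 matches to GGGCGG, beginning 199, 63 and 34 bases before the start. The Itgb1 window held 1 match to GGGCGG and 1 to GGAATG. No match to either was in the Itga8 window. Of 32851 promoter windows of this length, 32.7% held GGGCGG and 12.6% held GGAATG. The letters TGANTCA (AP-1; in 6.75% of windows), TTCNNNGAA (a STAT site; 7.02%) and the CArG box of serum response factor (1.47%) were not in any of the 3 windows. None of these motifs overlapped another, and GC content was 65.2% for Itgb5, 68.0% for Itgb1 and 56.4% for Itga8, against a median of 52.4%.

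Itgb1 itself differed little. Its FPKM was 342, 339.9 and 361 in floxed libraries 8, 9 and 43, and 324, 281 and 312 in Pdgfra-cre libraries 13, 23 and 25. Every Pdgfra-cre library lay below every floxed library, with means of 348 ± 11.9 and 305 ± 21.8 (SD, n = 3 each). The log2 fold change was -0.19 ± 0.10 (SE; 95% interval -0.42 to 0.045; limma adjusted p = 0.566), -0.13 without library 23 and -0.29 after rescaling to TPM. That rescaling moved the median over all genes tested by -0.091.

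Itga8, whose product joins beta1 as the receptor of nephronectin and is a known marker of contractile mesenchymal cells, had the lowest fold change. Its FPKM was 2.93, 3.37 and 5.02 in floxed libraries 8, 9 and 43, and 1.40, 0.408 and 1.32 in Pdgfra-cre libraries 13, 23 and 25. No Pdgfra-cre library reached the lowest floxed one, and library 23 was lowest of all. The means were 3.77 ± 1.10 and 1.04 ± 0.550 (SD, n = 3 each), and the log2 fold change was -1.24 ± 0.30 (SE; 95% interval -1.91 to -0.57; limma adjusted p = 0.189). It was -0.99 without library 23, -1.88 with a pseudocount of 0.1 and -0.53 with one of 5. A rough estimate from the steps of low values put about 20.7 to 242 reads behind these levels. Of its annotated exonic bases, 5.05% overlap E030013I19Rik on the opposite strand, from which reads cannot be told apart without strand. Among the tested members, larger shares overlap genes on the opposite strand for Itgb1bp1 (16.9%), Itgb3bp (8.59%) and Itgav (5.90%).

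Itgb8 encodes the beta8 chain, which with alphav releases active TGF-beta from its latent complex. Its FPKM was 1.34, 1.80 and 1.68 in floxed libraries 8, 9 and 43, and 0.655, 0.179 and 0.732 in Pdgfra-cre libraries 13, 23 and 25. It passed the filter through the floxed libraries alone, so it could only have been lower in Pdgfra-cre. The log2 fold change was -0.79 ± 0.27 (SE; 95% interval -1.39 to -0.19; limma adjusted p = 0.301), and -0.62 without library 23. It was -1.60 with a pseudocount of 0.1 and -0.26 with one of 5, since the added constant weighs heavily at this level. About 13.1 to 117 reads stood behind these values by the same rough estimate. Itgb8 lies on chromosome 12, 119158022 to 119238802.

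Smooth muscle markers lay in the same direction as Itga8 and Itgb8. All 8 of the markers (among them Acta2, Actg2, Cnn1 and Tagln) were lower in each Pdgfra-cre library than in any floxed one, with a median log2 fold change of -1.22 (-0.83 without library 23) and none past the adjusted threshold. Over all genes tested, 8.29% were lower without overlap. Lmod1, among the 8, met the filter through the floxed libraries alone, and the median of the other 7 was -1.24. Their summed FPKM was lowest in library 23, where Itga8 and Itgb8 were lowest too. That library held the lowest value of 7 of the 16 tested members, Itga8 and Itgb8 included. Pericyte markers summed to 38.4 to 55.6 FPKM over 6 genes in floxed libraries and 30.0 to 36.4 in Pdgfra-cre. Kcnj8 (30.4 ± 6.82 and 17.8 ± 3.21 FPKM; SD, n = 3 each) made up most of that difference and was the 1 of 4 tested that did not overlap, while Rgs5 had 3.41 ± 0.235 and 3.72 ± 1.05. No marker of these 2 lists was at 0 in all libraries, and their part in the Itga8 and Itgb8 values was not tested.

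**Figure D4:**
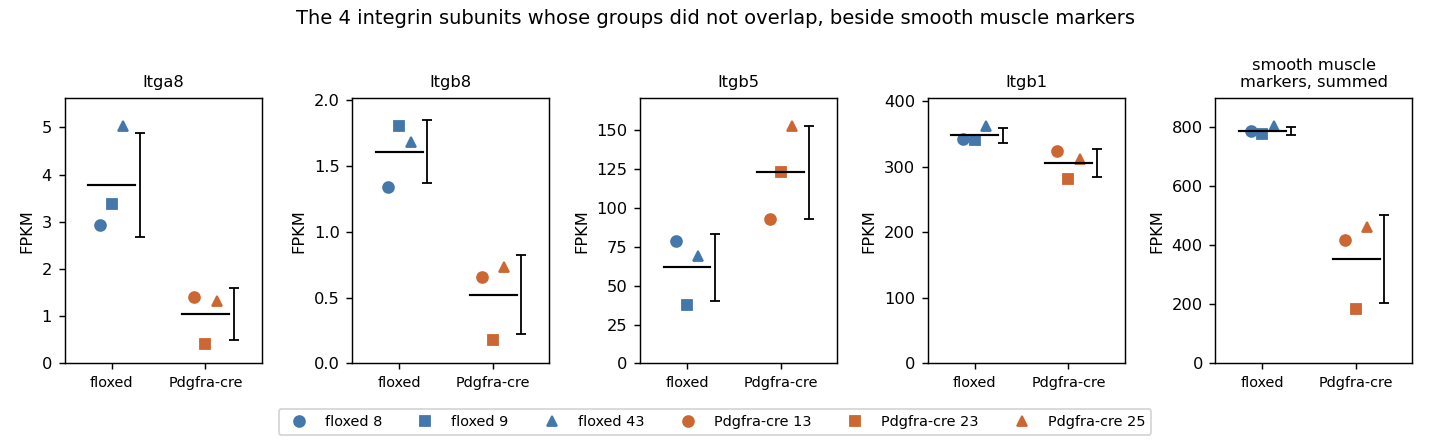
FPKM of Itga8, Itgb8, Itgb5 and Itgb1 and the summed FPKM of 8 smooth muscle markers, with 1 point per library, the group mean as a line and the SD (n = 3) as a bar. Itga8, Itgb8, Itgb1 and the markers are lower in all 3 Pdgfra-cre libraries than in any floxed library, and Itgb5 is higher.

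Among fibronectin and RGD receptors, Itga5 was the most abundant alpha subunit. It encodes the alpha chain of the classical fibronectin receptor. Its FPKM was 43.4, 58.7 and 38.6 in floxed libraries 8, 9 and 43, and 74.7, 49.3 and 56.8 in Pdgfra-cre libraries 13, 23 and 25. The groups overlapped, and the log2 fold change of 0.36 ± 0.19 (SE; 95% interval -0.083 to 0.79) did not pass (limma adjusted p = 0.566). Itgav, the shared alpha chain of the vitronectin and latent TGF-beta receptors, had 20.7, 16.3 and 21.4 FPKM in floxed libraries 8, 9 and 43 and 15.9, 14.7 and 18.4 in Pdgfra-cre libraries 13, 23 and 25. Its groups overlapped too (log2 fold change -0.24 ± 0.17, SE; limma adjusted p = 0.673).

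Itgb3, which like Itgb1 and Itgb5 encodes a partner of alphav, had 7.27, 7.11 and 12.2 FPKM in floxed libraries 8, 9 and 43. In Pdgfra-cre libraries 13, 23 and 25 it had 7.43, 7.72 and 8.79. Only floxed library 43 stood out, and the log2 fold change was -0.10 ± 0.23 (SE; limma adjusted p = 0.916), or 0.13 without that library. Itga2b, best known as the platelet fibrinogen receptor chain, was present at 1.47 ± 0.385 FPKM in floxed and 1.91 ± 0.425 in Pdgfra-cre (SD, n = 3 each; limma adjusted p = 0.807). The platelet marker Pf4 lay between 0 and 3.14 FPKM, with a mean over all libraries of 2.01 against 1.69 for Itga2b. Pf4 was listed at 0 in Pdgfra-cre library 13, where Itga2b had its highest value, 2.35 FPKM. The platelet genes Gp9 and Gp1bb had lower means over all libraries, 0.209 and 0.428 FPKM. The list of 6 platelet markers, Itga2b included, summed to 3.42 to 4.81 FPKM, and 2 of its genes were at 0 in all libraries. The 4 RGD-type alpha subunits together came to 71.6 ± 7.55 FPKM in floxed and 79.5 ± 14.1 in Pdgfra-cre (SD, n = 3 each; exact permutation p = 0.7).

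Collagen-binding alpha subunits, which carry an inserted domain that holds the collagen helix, were led by Itga11. Itga11, a receptor chain of fibroblasts for fibrillar collagen, had 25.1, 29.4 and 42.1 FPKM in floxed libraries 8, 9 and 43 and 26.1, 19.2 and 36.8 in Pdgfra-cre libraries 13, 23 and 25. The libraries of each group spread widely and overlapped (log2 fold change -0.24 ± 0.25, SE; limma adjusted p = 0.805). Itga1, which favours basement membrane collagen, had 12.5, 9.66 and 9.44 FPKM in floxed and 10.6, 3.94 and 8.31 in Pdgfra-cre in the same library order. Library 23 lay well below the other 5, and the log2 fold change of -0.50 ± 0.30 (SE; limma adjusted p = 0.615) became -0.14 without it.

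Itga2 was near the filter, at 1.67, 0.619 and 0.763 FPKM in floxed libraries and 0.236, 1.55 and 1.16 in Pdgfra-cre libraries. Its spread within each group exceeded the difference between them (log2 fold change -0.056 ± 0.35, SE; limma adjusted p = 0.978). Itga10 lay between 0 and 0.218 FPKM and was not tested. The 4 together came to 43.9 ± 7.52 FPKM in floxed and 36.0 ± 10.8 in Pdgfra-cre (SD, n = 3 each; exact permutation p = 0.4), of which Itga11 supplied 72.7% ± 8.25 and 75.9% ± 4.84.

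Laminin-binding alpha subunits were scarce. Itga7, known as the laminin receptor chain of muscle, was the only one tested, at 2.85, 2.54 and 1.99 FPKM in floxed libraries 8, 9 and 43 and 3.34, 2.01 and 1.40 in Pdgfra-cre libraries 13, 23 and 25 (log2 fold change -0.13 ± 0.28, SE; limma adjusted p = 0.913). Itga3 lay between 0.273 and 1.13 FPKM and reached 1 in 2 libraries. Itga6 lay between 0.104 and 0.882, and its epithelial partner Itgb4 between 0.054 and 0.635. The 3 alpha subunits together came to 3.75 ± 0.402 FPKM in floxed and 3.30 ± 1.40 in Pdgfra-cre (SD, n = 3 each; exact permutation p = 0.7), and the direction turned without Pdgfra-cre library 25.

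Itga9, whose product binds tenascin-C with beta1, had 8.72, 5.63 and 7.28 FPKM in floxed libraries 8, 9 and 43 and 6.68, 6.06 and 12.4 in Pdgfra-cre libraries 13, 23 and 25. Library 25 alone was high, and the log2 fold change of 0.15 ± 0.27 (SE; limma adjusted p = 0.901) was -0.14 without it. Its relative Itga4, which binds VCAM-1 and fibronectin, lay between 0.086 and 0.670 FPKM and was not tested.

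Subunits of leukocyte integrins were at or near 0. Itgal, Itgam, Itgax, Itgad and Itgae, the alpha chains of leukocytes, lay between 0 and 0.306 FPKM. In library 23, where S100a8 was 94.7 FPKM and neutrophil markers summed to 180, all 5 were listed at 0. Itgb2, the beta chain of these except Itgae, which pairs with Itgb7, was between 0 and 1.51 FPKM and highest in floxed library 9. Itgb7 lay between 0 and 0.466, Itgb6, an epithelial partner of alphav, between 0 and 0.287, and Itgad and Itgb2l were listed at 0 in all 6 libraries.

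The genes named after integrins that encode no subunit did not move together. Itgbl1, a secreted protein with repeats like those of beta chains, had 10.8, 14.4 and 9.91 FPKM in floxed libraries 8, 9 and 43 and 9.24, 7.30 and 9.78 in Pdgfra-cre libraries 13, 23 and 25. The groups did not overlap, by a margin of 9.78 against 9.91, and the log2 fold change was -0.37 ± 0.20 (SE; limma adjusted p = 0.560). Itgb1bp1, a cytoplasmic protein that binds the beta1 tail and restrains activation, lay between 20.9 and 26.8 FPKM over all libraries (log2 fold change 0.12 ± 0.14, SE; limma adjusted p = 0.832). Itgb3bp, which despite its name encodes a centromere protein, was 1.45 to 3.79 FPKM in floxed and 2.86 to 4.73 in Pdgfra-cre (log2 fold change 0.50 ± 0.30, SE; limma adjusted p = 0.611). Itgb1bp2, a muscle protein, was above 0 only in floxed library 43 (0.194 FPKM).

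Genes that act on integrins inside the cell were widely expressed, and 0 of 41 tested activators and adaptors passed in either direction. The median log2 fold change was -0.078, and the groups did not overlap in 15, with 3 higher (background 8.07%) and 12 lower (background 8.29%). Rap1b, a GTPase that recruits talin, had 273 FPKM in floxed and 276 in Pdgfra-cre as means, and the pseudokinase gene Ilk had 165 and 145. Flna, the actin crosslinker that binds beta tails, was 147 ± 11.1 and 103 ± 20.5 FPKM (SD, n = 3 each; limma adjusted p = 0.247). The lowest unadjusted p values belonged to Fblim1 (50.7 ± 13.3 FPKM in floxed and 23.9 ± 2.54 in Pdgfra-cre), a filamin-binding protein of adhesions. Next were Nedd9, a docking protein of the Cas family (18.7 ± 1.73 and 10.9 ± 1.28), and Tgfb1i1, a paxillin relative (33.5 ± 3.43 and 20.4 ± 4.19). The limma adjusted p of these 3 was 0.156 to 0.195, and their groups did not overlap. Smooth muscle markers lay in the same direction, and their part in these values was not tested.

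The 2 genes of the PINCH adaptors, partners of integrin-linked kinase, lay in opposite directions, a pair chosen after its values were seen. Lims1 was 35.7 ± 3.51 FPKM in floxed and 25.1 ± 2.58 in Pdgfra-cre (SD, n = 3 each; limma adjusted p = 0.243). Lims2 was 31.1 ± 7.74 and 57.5 ± 14.7 (limma adjusted p = 0.210). Neither overlapped between groups. The kindlin genes Fermt1 and Fermt3 were below the filter, whereas Fermt2 was 66.2 ± 6.03 and 50.7 ± 8.30 FPKM (limma adjusted p = 0.369), and the talin gene Tln1 was 20.7 and 20.9 FPKM as means.

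Lateral partners, other matrix receptors and ligands gave 0 passing genes of 62 tested. Among 14 lateral partners the tetraspanin genes Cd63 (1820 ± 120.3 and 1724 ± 93.8 FPKM) and Cd9 were most abundant together with Mxra8. The lowest p values there belonged to Cd81, Cd47 and Cd82 (limma adjusted p = 0.235 to 0.371). In every Pdgfra-cre library Cd81 and Cd47 were higher and Cd82 lower than in any floxed one. Of the 14, these were 2 higher and 1 lower without overlap, where 8.07% and 8.29% of all genes were. Cd47, which associates with integrins and thrombospondin, was 267 ± 22.4 and 336 ± 33.0 FPKM (SD, n = 3 each). Of 11 tested matrix receptors other than integrins, Sdc2, Sdc4 and the collagen receptor gene Ddr2 were most abundant. Values of both genotypes overlapped for all but 1 of the 11, the syndecan gene Sdc1 (65.8 ± 15.5 and 40.2 ± 11.4 FPKM; limma adjusted p = 0.287), a share near the 8.29% of all genes that were lower without overlap.

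Ligands of the expressed receptors were themselves transcribed in these cells. Collagen genes were led by Col3a1, Col1a2 and Col1a1, and none of the 10 listed separated the groups (median log2 fold change -0.064, and 0.088 without library 23). Fibronectin (Fn1) lay between 291 and 373 FPKM in all libraries. Among laminin chains Lamb1, Lamc1 and Lama4 were most abundant. Lama5 and Lama1, both at low levels, were the 2 of 8 tested that did not overlap. Both were lower in Pdgfra-cre, and 8.29% of all genes tested were lower without overlap. Lama5 met the filter through the floxed libraries alone, so it could only have been lower. Of 15 tested RGD and related ligands, 5 were lower without overlap (8.29% of all genes) and 1 higher (8.07%), and 10 had a log2 fold change below 0, as had 49.7% of all genes (median -0.28, and -0.11 without library 23). Edil3, an RGD protein that binds alphav integrins, was 35.6, 22.3 and 63.8 FPKM in floxed libraries 8, 9 and 43 and 9.34, 11.5 and 15.5 in Pdgfra-cre libraries 13, 23 and 25. Its log2 fold change was -1.57 ± 0.33 (SE; limma adjusted p = 0.169), and the matrix genes Tgfbi (-1.02) and Ctgf (-0.67) came next (limma adjusted p = 0.247 and 0.211).

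For 2 of the subunits singled out above, the ligand side was uneven. Npnt, which encodes nephronectin, the ligand of the Itga8 receptor, lay between 0 and 0.887 FPKM and was not tested. Of the latent TGF-beta genes that alphav pairs act on, Tgfb1 lay between 0.554 and 1.00 FPKM, while Tgfb3 was 34.8 ± 1.65 FPKM in floxed and 42.3 ± 8.23 in Pdgfra-cre (SD, n = 3 each; limma adjusted p = 0.602). Vtn, the vitronectin gene, lay between 2.67 and 18.4 FPKM with overlapping groups. Of the counter-receptors that stromal cells offer to leukocyte integrins, Icam1 was 329 ± 35.5 and 452 ± 90.1 FPKM without overlap (limma adjusted p = 0.312), and Vcam1 was 190 ± 33.1 and 150.2 ± 24.0 with overlap (limma adjusted p = 0.515).

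**Figure D5:**
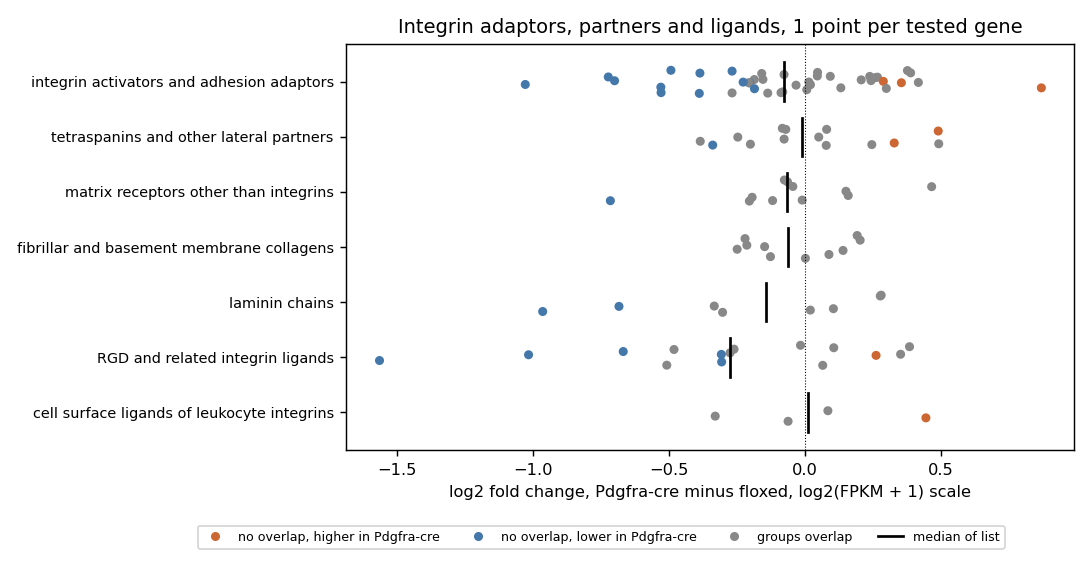
Log2 fold change, Pdgfra-cre minus floxed, on the log2(FPKM + 1) scale for each tested gene of 7 lists, coloured by whether the 3 libraries of each group overlap, with the list median as a black line. Most points lie within 0.5 of 0, and Edil3 is the lowest.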

How the data were processed

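Total RNA of sorted cells was made into full-length cDNA and tagmented, per the labels' protocols, which loses strand information. The authors deposited gene-level FPKM, 1 table per library. Per the submitters' processing notes, TopHat2 2.1.1, Bowtie2 2.2.8, SAMtools 0.1.18, Cuffdiff 2.2.1 and mm10 were used; annotation release, options and read numbers are not given in the sources used here. Steps between low values put 1 read per kilobase at about 0.114 to 0.135 FPKM, a rough estimate.

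The 11429 genes with 3 or more libraries at an FPKM of 1 or higher were fitted with limma 3.58.1 in R 4.3.3 on log2(FPKM + 1), a scale that understates changes of low genes, with a variance trend and Benjamini-Hochberg adjustment (threshold 0.05). Per-library sums and ratios were compared with exact two-sided permutation tests. The fit was tested on simulated data. Members and lists were chosen with earlier results of these data known. From each list the 3 most abundant tested genes and the 3 with the lowest p could be named. Some tested genes were named outside this rule, among them Tln1, Fermt2, Lims1, Lims2, Tgfb3 and Vtn. Locations are from GENCODE M21, in which all 31 members matched, and 22 members had a RefSeq promoter sequence. The Itgb8 window was not printed, since GENCODE places the gene's start upstream of it. Alternatives were pseudocounts of 0.1 and 5, no filter and one of 5 FPKM, median-of-ratios, quantile and TPM scaling, no trend, a robust prior, array weights and leaving out each library.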

Additional observations from a re-analysis of the deposited data

How the results depend on the processing

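The count of integrin members past the threshold stayed at 0 under every alternative run, as did the counts for adaptors and for partners, receptors and ligands. The count over all genes was 0, was 9 without a filter, and ran from 0 to 33 on omitting single libraries (33 for Pdgfra-cre library 25, 3 for 13 and 2 for floxed library 43). Among the 350 recomputed values were the counts of passing genes, which have no direction. Of the rest, 6 turned direction, all on leaving out 1 library. The log2 fold change then ran from -0.27 to 0.25 for Itga2 (0.16 without floxed library 8, 0.25 without Pdgfra-cre library 13), from -0.36 to 0.069 for Itga7, from -0.14 to 0.32 for Itga9 and from -0.22 to 0.13 for Itgb3. The log2 ratio of summed laminin-binding alpha subunits ran from -0.55 to 0.075, that of collagen-binding ones from -0.51 to -0.073, that of RGD-type ones from 0.011 to 0.27 and that of alpha partners over Itgb1 from 0.12 to 0.28. Over all alternatives the lowest adjusted p was 0.178 for Itgb5, 0.154 for Itga8 and 0.280 for Itgb8. No paired analysis was possible because the groups share no replicate numbers. Read depth, known only roughly, limits Itga8, Itgb8 and Itga2.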
